A study of Dunaliella salina with 9 samples.

Results

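The stepwise falling clusters of the green alga Dunaliella salina are those with a lower level in moderate than in growth light, and a lower one still in strong light. They are 70 of the 76875 transcript clusters listed, each a numbered group of assembled transcript sequence for which the files give no gene name. Cultures kept at 22 °C under 16 h of light (150 µmol photons m⁻² s⁻¹) and 8 h of dark were collected in mid-exponential growth, placed in fresh medium and later sequenced as bulk RNA. LL cells stayed at 150, ML cells were moved in a single step to 600, and HL cells were moved in a single step to 1500 µmol photons m⁻² s⁻¹, with 3 libraries for each. How long the cells spent at the new light before RNA was taken is not stated in the labels. Per the series title, the study asked how gene expression changes during photoacclimation. No label says that the 3 libraries of a group came from separate cultures, so their spread may be partly technical.

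The 70 clusters were chosen by their measured levels, as CPM (counts scaled to 1000000 per library). A cluster was kept if its LL mean was at least 5 CPM, if LL was at least 1.5 times ML and ML at least 1.5 times HL, and if every library of a group lay above every library of the next group. Of all clusters, 14830 had an LL mean of at least 5 CPM. Among these, LL was at least 1.5 times ML for 2472 and ML was at least 1.5 times HL for 4621, and 108 met both conditions. Overlapping libraries kept out 38 of the 108, 17 of them at the step to HL alone, 5 at the step to ML alone and 16 at both. The direction of each step and its minimum size are therefore fixed by the choice, and the levels given here describe the clusters without testing them. Depth was even: LL libraries held 17778225 to 18914255 counts, ML libraries 18451243 to 19535140 and HL libraries 18799637 to 19643714, and a single count was worth 0.0509 to 0.0562 CPM.

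Green algae moved to brighter light take in more energy than their carbon metabolism can use. Over hours to days they commonly make smaller light-harvesting antennae and less chlorophyll, while they build up photoprotective carotenoids, for which D. salina is well known. Transcripts of antenna proteins are a well-known example of messages that decline in strong light. Whether any of the 70 clusters encodes such a protein is not known here. Their identifiers are cluster numbers without gene names, and no sequence or function can be given for them. By identifier alone, 0 of the 76875 matched the gene table of the Dunsal1 assembly, and no sequences were compared.

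The cluster with the highest level in LL was Cluster-5009.33153, which was lower at each step by only a little more than the rule asked. Its level was 1043, 1100 and 1169 CPM in the LL libraries, 767, 700 and 731 CPM in the ML libraries, and 466, 445 and 422 CPM in the HL libraries. The groups did not overlap, and the means were 1104 ± 63.2, 732 ± 33.6 and 444 ± 21.8 CPM in LL, ML and HL (SD, n = 3 each). Per length, the deposited FPKM (fragments scaled to transcript length and depth) averaged 654 ± 36.7 for LL, 434 ± 21.0 for ML and 262 ± 12.3 for HL (SD, n = 3). In bulk RNA, fewer transcripts per cell and fewer cells carrying them cannot be told apart, here or below. By mean CPM it ranked 148 among all clusters in LL, 233 in ML and 300 in HL, and so stayed among the abundant transcripts at every irradiance. ML stood at 66.3% of LL and HL at 60.7% of ML. With TMM scaling, which corrects library totals for shifts in composition, HL stood at 69.9% of ML, so that the cluster then missed the 1.5-fold limit at that step.

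Cluster-5009.54852 had the largest smaller step among members of at least 1 CPM in HL, with drops of nearly equal size at both steps. Its level was 46.3, 45.8 and 52.6 CPM in LL, 12.1, 12.1 and 12.1 CPM in ML, and 3.12, 3.46 and 2.50 CPM in HL. The means were 48.3 ± 3.80, 12.1 ± 0.035 and 3.03 ± 0.49 CPM (SD, n = 3 each), with a wide gap between the groups. ML kept 25.1% of the LL level and HL 6.28%. The LL libraries held 824 to 943 of its reads, the ML libraries 223 to 237 and the HL libraries 47 to 68, so counting error weighs most on the HL values. Its rank by mean CPM was 3317 in LL and 17263 in HL. The small ML SD is no guide to precision, as it was 0.33 CPM with TMM scaling. With TMM scaling ML kept 24.3% of LL and HL 28.9% of ML, and the cluster met the rule under every scaling tried and without any of the 9 libraries in turn.

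Below the leading cluster came a pair of nearly equal level in LL that fell further. The second in LL had 537, 452 and 411 CPM in LL, 204, 233 and 248 in ML, and 84.9, 88.6 and 90.4 in HL. The third had 436, 458 and 482 CPM in LL, 213, 208 and 206 in ML, and 68.7, 63.5 and 72.7 in HL. The groups of both did not overlap, as the rule requires. The LL libraries of the second were more spread, with an SD of 64.2 CPM, than those of the third, with an SD of 22.9 CPM. The fourth, at 380 CPM in LL, 253 in ML and 161 in HL, fell at each step by barely more than the rule required. The 3 most abundant members held 37.2% of all member counts in LL, 41.8% in ML and 44.1% in HL. Cluster-5009.33153 alone made up 20.2% of them in LL, 26.2% in ML and 32.6% in HL, since it fell less than most others.

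**Figure D1:**
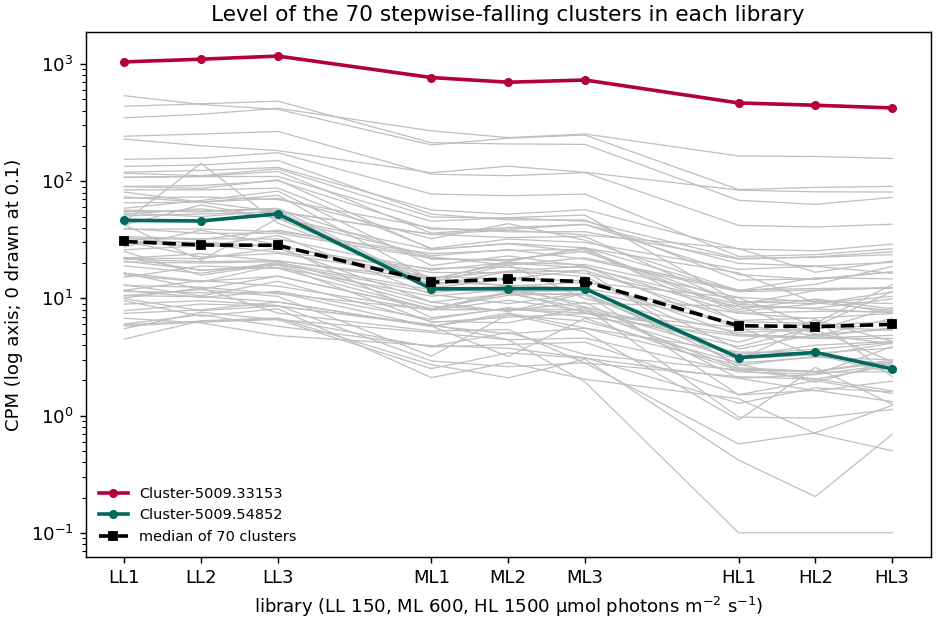
CPM on a log axis (vertical) of each of the 70 clusters in the 9 libraries (horizontal), one grey line per cluster, with the 2 named clusters in colour and the median over clusters as a dashed line. The median lies at 28.4 to 30.6 CPM in the LL libraries, 13.7 to 14.7 in ML and 5.75 to 6.003 in HL; the cluster without HL counts is drawn at 0.1.

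As a group the 70 clusters ranged widely in level and held a small share of all counts. Their LL means ran from 5.92 to 1104 CPM with a median of 30.2, against a median of 18.4 CPM for the 14760 other clusters of at least 5 CPM in LL. LL means of at least 100 CPM were found for 12 members, 10 to under 100 CPM for 46 and under 10 CPM for 12. The median member ranked 5032.5 by level in LL, 8828 in ML and 13514 in HL. Summed, the members took 0.536%, 0.543% and 0.557% of the counts of the LL libraries, 0.279%, 0.279% and 0.282% in ML, and 0.138%, 0.134% and 0.136% in HL. This was 0.546% ± 0.011 for LL, 0.280% ± 0.0015 for ML and 0.136% ± 0.0019 for HL (SD over 3 libraries). Without Cluster-5009.33153 the shares were 0.435% ± 0.0045 in LL, 0.207% ± 0.0037 in ML and 0.0918% ± 0.0022 in HL.

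**Figure D2:**
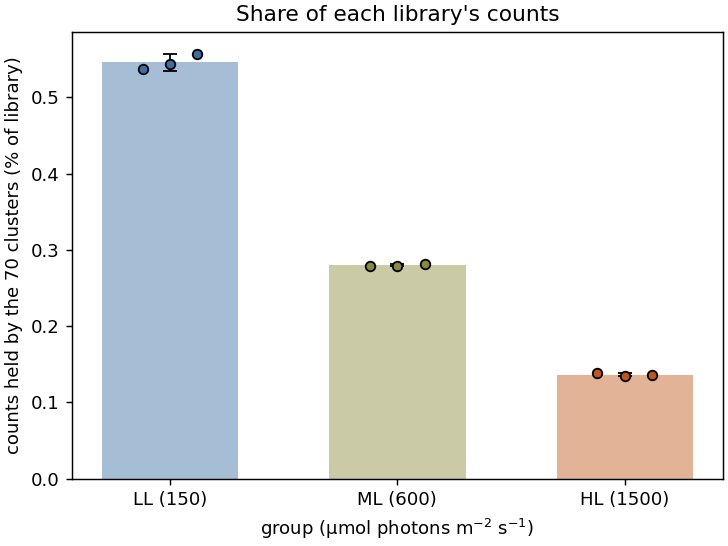
Percent of each library's counts held by the 70 clusters (vertical) in LL, ML and HL (horizontal); bars are group means, whiskers the SD and points the 3 libraries. Points span 0.536% to 0.557% for LL, 0.279% to 0.282% for ML and 0.134% to 0.138% for HL; the order follows from how the clusters were chosen.

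Which library of a group was highest varied between members. Among the LL libraries, the highest value was in replicate 1 for 22 members, in replicate 2 for 16 and in replicate 3 for 32. In ML the highest was replicate 1 for 17, replicate 2 for 31 and replicate 3 for 22, and in HL replicate 1 for 17, replicate 2 for 17 and replicate 3 for 36. The median coefficient of variation of the members between libraries was 8.29% among LL libraries, 9.23% among ML and 12.0% among HL libraries. For the other clusters of at least 5 CPM in LL it came to 7.48% for LL, 7.28% for ML and 6.82% for HL. The median HL level was 5.65 CPM for the members and 16.8 CPM for these others.

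The clusters differed in how the fall was divided between the steps. The median member kept 52.5% of its LL level in ML (range 21.9% to 66.5%) and 42.0% of its ML level in HL (0% to 66.2%). In HL the median level was 21.9% of LL, with quartiles of 11.6% and 31.5%. Both steps were at least 2-fold for 28 members, only the step to HL for 16, only the step to ML for 5 and neither for 21. Falls of at least 3-fold at both steps were found for 6 members. The HL level was at most 10% of LL for 15 members and over 25% for 29.

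By library totals, the drop from ML to HL was the larger for 46 members and the drop from LL to ML for 24. This balance depended on the scaling: with TMM factors the drop to HL was larger for 28 and the drop to ML for 42, with medians of 51.0% of LL in ML and 48.4% of ML in HL. The TMM factors averaged 1.03 in LL, 1.06 in ML and 0.918 in HL, and the median log2 fold change of HL over ML across all clusters tested was −0.28 with library totals and −0.07 with TMM. ML irradiance was 2 doublings above LL, and HL irradiance 1.32 doublings above ML. Per doubling, the median log2 change in CPM was −0.47 for ML over LL (70 members) and −0.94 for HL over ML (69 members with a count in HL). It was steeper at the step to HL for 65 of the 70, and with TMM for 54, where the medians were −0.49 and −0.79. The rule asked for the same 1.5-fold at both steps, though they span unequal numbers of doublings. Equal drops therefore count as steeper at the step to HL, and the shallowest values were −0.29 and −0.45. Part of this difference is thus set by the choice, and nothing is read from it.

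**Figure D3:**
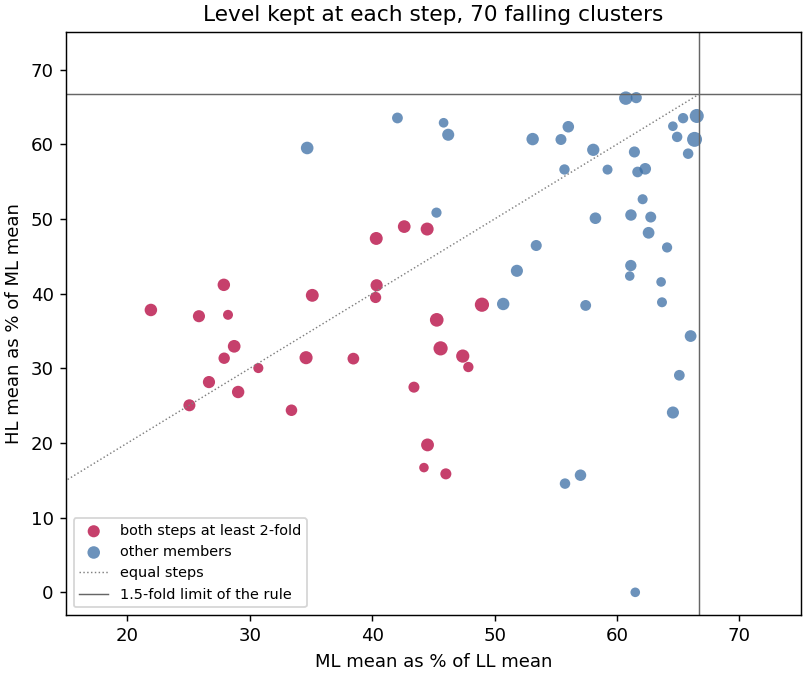
Each point is a member, with its ML mean as a percent of its LL mean (horizontal) and its HL mean as a percent of its ML mean (vertical); larger points have a higher LL level, solid lines mark the 1.5-fold limits and the dotted line equal steps. The 28 members with both steps of at least 2-fold lie at the lower left, and 46 members lie below the dotted line.

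Members just inside the limit and clusters just outside it were close in their smaller step, but not in their larger one. The 3 with the smallest step that were kept had a smaller ratio of 1.503, 1.507 and 1.510, and the 3 nearest that were left out, with libraries as well separated, had 1.49975, 1.492 and 1.491. Their larger ratio was 1.57, 1.65 and 1.62 for those kept, and 2.86, 2.31 and 2.22 for those left out. The closest one left out stood at 58.9 CPM in LL, 39.3 in ML and 13.7 in HL. Ratios under 1.6 at either step were found for 18 of the 70 members. With TMM scaling 50 of the 70 met the rule, with RLE factors 48 and with upper-quartile factors 60. On the deposited FPKM values 58 met it, and 41 met it under all 4. For FPKM the LL floor was read in FPKM instead of CPM, and so depended on length. LL means of the members lost on FPKM ran from 0.613 to 4.87 FPKM, all under that floor. Their loss therefore does not show that the steps were lost, and this holds for the 41 as well. Leaving out a single library kept 62 to 70 of the members, and 50 were kept under all 9 such choices. All 13 conditions, with the floor in FPKM among them, were met by 36. These 36 had a median of 44.4% of LL in ML and 34.7% of ML in HL.

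All 70 clusters passed the expression filter, which the LL floor of the rule made likely, and were part of a fit across 34377 clusters with edgeR's quasi-likelihood test. Of these 70, 67 were called lower in ML than in LL at a Benjamini-Hochberg adjusted p below 0.05, beside 19.5% of all clusters tested. For HL against ML 64 were called lower, beside 29.9% of all, and for HL against LL all 70, beside 22.4%. Both steps were called for 62 members, beside 1.11% of all clusters. The choice used the same libraries and contrasts, so nothing is read from these counts. In this fit the median log2 fold change of the members was −0.97 for ML over LL and −1.05 for HL over ML, against 0.04 and −0.07 over all clusters tested. The 6 members not called at the step to HL had log2 fold changes of −0.40 to −1.20.

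Some members had a wide spread between libraries. A coefficient of variation above 30% in some group was found for 16 of the 70, most often in HL, where 12 exceeded it. The share of other clusters above 30% was not counted, so this count is not called high or low. In HL the upper quartile was 20.4% for members and 12.1% for the other clusters of at least 5 CPM in LL. Those had a higher median HL level (16.8 against 5.65 CPM). The widest was that of the 16th member by LL level, with 45.2, 142 and 43.9 CPM in LL, 14.8, 17.1 and 18.8 in ML, and 5.47, 5.35 and 8.35 in HL. LL replicate 2 alone was high, and the largest first drop of all members, to 21.9% of LL in ML, rested on it: without that library ML stood at 37.9% of LL. This cluster had whole counts in all 9 libraries.

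Less than 1 CPM in HL was found for 4 members. The lowest had 5.81, 6.28 and 6.60 CPM in LL, 5.12, 4.44 and 1.94 CPM in ML, and no count in any HL library. By counting error alone, counts of 0 in 3 HL libraries allow a level of up to 0.0520 CPM (3 counts over the group). Against that floor the LL mean was 119.7-fold and the ML mean 73.6-fold higher. The floor leaves out the spread between libraries and any error in how reads were assigned to similar sequences, so these are not firm lower bounds. This cluster was also the longest member by implied length, at 10172 bases, with non-whole counts in LL and ML. It was not called lower in ML than in LL (adjusted p 0.149, edgeR quasi-likelihood test). Its coefficient of variation in ML was 43.7%, and it did not meet the rule under all 9 choices that left out a library. Another had 8, 4 and 13 reads in the HL libraries against 80, 122 and 122 in the LL libraries, and means of 5.92 ± 1.24 CPM for LL, 2.62 ± 0.48 for ML and 0.437 ± 0.24 for HL (SD, n = 3).

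Levels that a choice did not use come from libraries left out of it. The rule was applied to the libraries of 2 replicate numbers and the clusters it chose were read in the LL, ML and HL library of the number left out. With number 1 left out, 80 of the 96 chosen clusters had LL above ML above HL in the libraries left out (83.3%), with number 2 left out 80 of 91 (87.9%), and with number 3 left out 94 of 109 (86.2%). Among all 14830 clusters of at least 5 CPM in LL, 19.7%, 18.6% and 17.0% had that order in the libraries of numbers 1, 2 and 3. Over the 3 numbers, 254 of 296 kept the order and 157 kept both steps at 1.5-fold, where a cluster chosen more than once was counted each time. Those 157 are among the 254, since keeping both steps implies keeping the order. LL lay above HL in the libraries left out for 93 of 96, 89 of 91 and 106 of 109. The median level of ML in the libraries left out was 53.3%, 61.6% and 57.8% of LL, and that of HL was 48.1%, 37.8% and 49.2% of ML. In the libraries used for the choice these were 54.7%, 54.5% and 56.3% for ML and 43.1%, 43.2% and 44.3% for HL. The chosen sets overlap each other and hold 62, 58 and 62 of the 70 members. Numbers only name libraries here and do not pair them. Libraries of a group may come from the same culture, so these values do not show that the order would recur in a new culture.

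**Figure D4:**
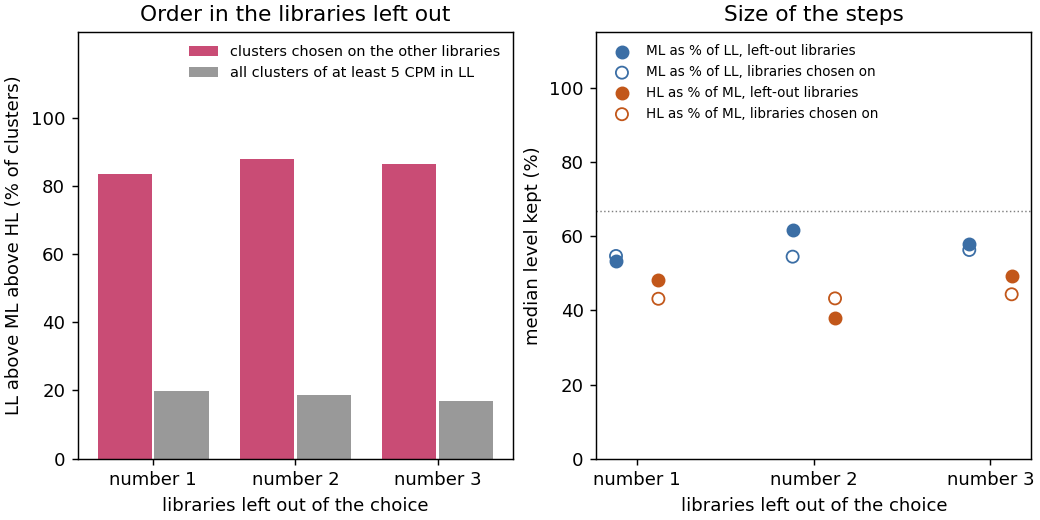
Left, percent of clusters with LL above ML above HL (vertical) in the libraries of the replicate number left out of the choice (horizontal), for the clusters chosen on the other libraries and for all 14830 clusters of at least 5 CPM in LL. Right, median level kept (vertical) in the libraries left out (filled) and in those used for the choice (open), with the 1.5-fold limit dotted; the order was kept by 83.3% to 87.9% of the chosen clusters.

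Length was not used by the rule and could be derived for all 70 members from the ratio of count to FPKM. The median was 1435 bases for the members, with quartiles of 854 and 2259, against 1349 bases for the other clusters of at least 5 CPM in LL, with quartiles of 816 and 2154. The difference of 85.8 bases turned to −43.6 against the other clusters of at least 10 CPM in LL. Among the members, larger falls went with shorter length as a moderate tendency, with exceptions: the member without HL counts was the longest. The 28 with both steps of at least 2-fold had a median of 991 bases (quartiles 643 and 1453), and the 21 with neither had 2148 (1163 and 2528). Of 17 members under 700 bases, 10 had both steps of at least 2-fold, and of 21 members of 2100 bases or more, 5 did. HL kept a median of 10.9% of the LL level in the short ones and 31.5% in the long ones. Across the 69 members with a count in HL, which leaves out that longest one, Spearman's rho between length and log2 HL over LL was 0.38 and Pearson's r with log2 length 0.41. Among the 14751 other clusters with a count in HL these were −0.26 and −0.22. Among the 9195 of them that were lower in HL than in LL, as all members are, they were nearer 0, at −0.10 and −0.09. These are descriptions across clusters that share their libraries, and the choice of members limits the range of the fall. The 28 members with both large steps also had a higher median level in LL, at 63.2 CPM, against 21.1 CPM for the 21 with neither. Between these sets a shorter length thus went with a higher level, and their parts were not tested.

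**Figure D5:**
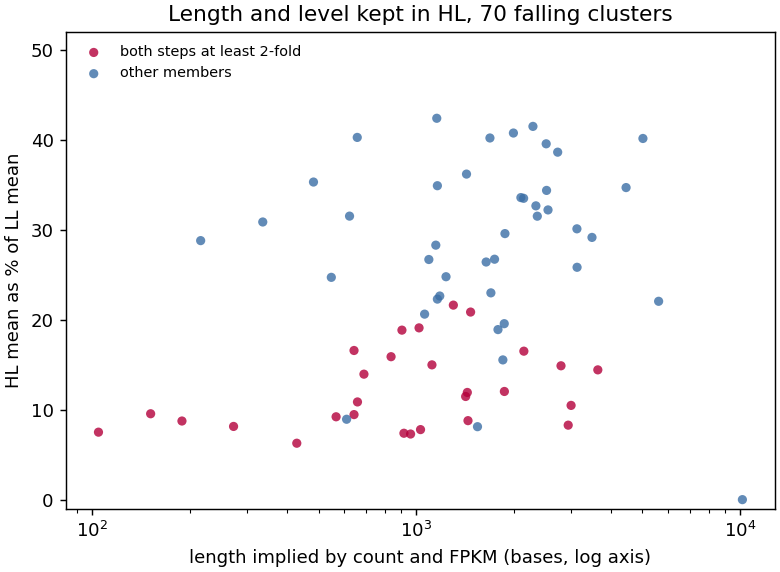
Length implied by count and FPKM (horizontal, log axis, bases) and HL mean as a percent of LL mean (vertical) for the 70 members, with the 28 that fell at least 2-fold at both steps in red. Of 5 members under 300 bases, 4 had both large steps and kept at most 9.55% of LL, while members of 2100 bases or more kept a median of 31.5%.

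Non-whole counts can arise where a counting program divides reads among similar sequences. Whole counts in all 9 libraries were found for 22 of the 70 (31.4%, exact 95% binomial interval 20.9 to 43.6) and for 6514 of the 14760 other clusters (44.1%, 43.3 to 44.9). Among the 38 clusters that rose stepwise by the mirrored rule, 15 had whole counts (39.5%, 24.0 to 56.6). The member interval ends at 43.6 and that of the other clusters begins at 43.3, so these barely overlap. That of the rising clusters overlaps both. Overlap of intervals is no test, and the difference between the sets was not tested. Clusters share libraries and assembly, so the intervals are too narrow. The 22 members with whole counts kept a median of 44.4% of LL in ML and 47.5% of ML in HL, and the other 48 kept 56.5% and 41.1%. In HL the medians were 21.3% and 22.2% of LL.

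All 70 identifiers shared the leading number 5009, as did all 14830 clusters of at least 5 CPM in LL, and 4 members stood at consecutive trailing numbers as 2 pairs. What these numbers mean is not stated in the labels or headers. In one pair both clusters had an implied length of 643 bases and non-whole counts. The more abundant of the pair stood at 93.2 ± 8.40 CPM in LL, 26.8 ± 2.25 in ML and 8.82 ± 1.18 in HL, and its neighbour at 56.4 ± 1.66, 22.8 ± 2.16 and 9.36 ± 1.84 (SD, n = 3 each). In the other pair, of 1150 and 216 bases with whole counts, the levels were 51.1 ± 10.5 and 6.57 ± 1.05 CPM in LL, 23.6 ± 2.31 and 3.01 ± 0.46 in ML, and 14.5 ± 3.80 and 1.89 ± 0.24 in HL. Both of this pair kept similar percentages at each step despite the difference in level. Neither met the rule with TMM or RLE scaling. Neither was called lower in HL than in ML (adjusted p 0.063 and 0.058, edgeR quasi-likelihood test). Of the 48 neighbours of members that were no members themselves and had at least 5 CPM in LL, 16 (33.3%) had LL above ML above HL by their means, beside 2657 of the 14760 other clusters.

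The mirror pattern was rarer. With the same limits turned round, at least 5 CPM in HL and rising at both steps, 38 clusters were found, against the 70 stepwise falling ones. The rising clusters held 0.067% ± 0.0020 of the LL counts, 0.182% ± 0.0058 of the ML counts and 0.322% ± 0.0051 of the HL counts (SD over 3 libraries). Their median HL level was 13.1 CPM and their median implied length 1072 bases. The median of all clusters tested also lay below 0 at the step to HL with library totals (log2 −0.28), and its part in the counts of 70 and 38 was not tested.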

How the data were processed

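RNA was extracted with Trizol and 1.5 µg per sample was used with the NEBNext Ultra kit, per the labels' protocols. The authors deposited for each library an estimated count, not scaled to depth or length and often non-whole, and an FPKM value for every cluster, per the file headers. DESeq 1.10.1 is listed in the submitters' processing notes, without its role. Assembler, aligner, counter and build: not given in the sources used here.

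CPM was computed from the library totals. Estimated counts were rounded and fitted with edgeR 4.0.16 in R 4.3.3 (default expression filter, TMM factors, robust quasi-likelihood, group as the only term, all 9 libraries, Benjamini-Hochberg over 34377 clusters). Alternatives used RLE, upper-quartile or no factors, DESeq2 1.42.0, no filter, limma 3.58.1 on log2(FPKM + 1) and log2(FPKM + 0.1), a replicate block, and 8 of the 9 libraries. The fit was checked on simulated counts with known changes in HL only, read for HL against LL. No change in ML was simulated, so a stepwise fall was not covered. The rule was checked on a few made-up rows with known answers. Lengths are effective lengths, from count over FPKM where FPKM reached 0.5.

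Named clusters were the member highest in LL and the one with the largest smaller step among those of at least 1 CPM in HL; others are given by rank, and those singled out for their spread, a count of 0 or their number were chosen after their values were seen. The members and comparisons were chosen with earlier results of these data known. Same-numbered libraries did not deviate together (Pearson's r −0.039 to 0.011), so numbers were not taken as pairs. Within groups, pairs of libraries differed by a chi-square of 6.22 to 9.79 per degree of freedom, above counting noise, so none was merged with another as a repeat deposit. This does not show separate cultures, since library preparation and read assignment also add spread. The intervals on the shares with whole counts treat clusters as independent draws. The floor set for counts of 0 covers counting error only.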

Additional observations from a re-analysis of the deposited data

How the results depend on the processing

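The number of stepwise falling clusters followed the limits of the rule. It was 288 where each level was at most 80% of the one before, 28 with steps of at least 2-fold, 111 with an LL floor of 1 CPM, 108 with no condition on single libraries and 22 among clusters with whole counts; the construction of each sets the direction. Other scalings gave 56 to 61, a floor of 10 CPM gave 58 and leaving out a library 73 to 92. FPKM gave 84, with the LL floor read in FPKM and so not the same limit. The median log2 fold change of ML over LL was −0.93 with library totals alone, −0.85 with limma on log2(FPKM + 1), −0.93 with a pseudocount of 0.1, and −1.02 to −0.95 without a library. That of HL over ML was −1.14 with upper-quartile factors, −1.25 with library totals, −0.98 and −1.21 with limma at pseudocounts of 1 and 0.1, and −1.06 to −0.95 without a library. The drop to HL was the larger for 28 members with TMM, against 46, an alternative chosen after the data were seen. The excess of 85.8 bases in median length over other clusters turned to −43.6 against those of at least 10 CPM in LL; the cause was not tested. Over tested clusters the ML share of counts was 0.281%. With a replicate block 66 members were called lower in ML than LL, 61 in HL than ML and 70 in HL than LL, with medians of −0.97 for ML over LL and −1.05 for HL over ML. Same-numbered libraries did not deviate together. Depth limits the clusters with few HL reads.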

Other observations

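The same pattern continued at lower levels. Of 10734 clusters with an LL mean of 1 to under 5 CPM, 41 met the step and separation conditions, with a median of 2.39 CPM in LL. They kept a median of 53.8% of LL in ML and 34.6% of ML in HL, and 2 of them had no count in any HL library. Their median implied length was 809 bases, against 881 bases for the other clusters in that range of level. They were chosen on the same values as the more abundant ones, so their steps are a description.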
